A study of Mus musculus with 12 samples.

Results

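The nucleosome remodeling and deacetylase (NuRD) complex was followed through 10 of its genes, Chd4, Mta1, Mta2, Mta3, Hdac1, Hdac2, Mbd3, Gatad2a, Gatad2b and Rbbp4, in mouse pre-B leukemia cells. The genes were chosen by symbol as complex partners of Ikaros, and all 10 were found among the 12151 genes of the expression table. RNA expression had been measured in 12 libraries of pre-B cells transformed with BCR-ABL1, grown from bone marrow of mice aged 6 to 12 weeks with IL-7, which was withdrawn after transformation. All cells carried the Ctnnb1Ex3fl/+ allele, in which Cre removes the exon that holds the degradation signal of β-catenin and so stabilizes the protein. The 4 groups of 3 libraries crossed Cas9 editing with nontargeting guides (WT) or guides to Ikzf1 and Ikzf3 (KO) with an ERT2 control vector or a Cre-ERT2 vector (ERT2 WT and KO, and Cre-ERT2 WT and KO). Vector-bearing cells were sorted by GFP and treated with 4-hydroxytamoxifen (4-OHT). The labels name day 1 of that treatment in a sentence written for ChIP-seq. The edited lines were grown from single cells, and the sources used here do not tie a clone to a library, nor do they say whether replicates were separate cultures. The p-values therefore measure only the spread between these libraries, which may be technical, and a difference between KO and WT cannot be told apart from a difference between clones.

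NuRD joins 2 enzymatic activities in 1 assembly. Chd4 is the ATPase that moves nucleosomes, Hdac1 and Hdac2 remove acetyl groups from histones, the Mta proteins form the scaffold that holds the deacetylases, Rbbp4 binds histones, Mbd3 links the deacetylase module to the rest, and Gatad2a or Gatad2b bridges Mbd3 and Chd4. Ikaros (Ikzf1) and Aiolos (Ikzf3), zinc finger factors of lymphocytes, bind NuRD and bring it to chromatin, and Ikaros is required for B cell differentiation.

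Values are the authors' normalized log2 expression, and a change is a difference of group means on that scale, given with its standard error from limma fitted over all 12 libraries. A gene is called at an adjusted p under 0.05 (Benjamini-Hochberg over 12151 genes). Library medians lay between 9.06 and 9.11, and the read depth is unknown because the table holds no counts. Ikzf1 RNA was 1.01 and 0.90 higher in the libraries labelled KO (ERT2 and Cre-ERT2), and Ikzf3 RNA fell by 0.65 and 0.70. An RNA level does not measure the editing or the protein, so neither direction tests the label. The paper reports western blots that checked the loss of Ikaros factors in its clonal lines. Ctnnb1 RNA was 0.13 higher in Cre-ERT2 KO than in ERT2 KO libraries (adjusted p = 0.00407) and 0.065 higher in Cre-ERT2 WT than in ERT2 WT (adjusted p = 0.128), a level that does not measure excision. Of the 13 pre-B cell markers listed, all 13 were present, with group means from 9.49 to 15.2. Of the markers of other cells, 2 of 9 T cell genes, 3 of 10 myeloid genes and 1 of 8 erythroid genes were in the table. In bulk samples, fewer cells of a type and less RNA per cell cannot be told apart.

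Per kilobase of the longest coding transcript, Chd4 (11.54 log2 units per kb in ERT2 WT) and Rbbp4 (11.52) had the highest levels of the 10 genes, and the gap between them was smaller than the SD of Chd4 over 3 libraries (0.023). Hdac1 (11.05), Mta2 (10.96), Mbd3 (10.78), Mta1 (10.60) and Hdac2 (10.44) followed. Gatad2a lay at 9.55, Mta3 at 7.67 and Gatad2b at 5.77. With the length of all exons joined, Mbd3 and Mta1 stood at 10.61 and 10.59, closer than the SD of Mta1 (0.057). Within families, the summed per-length level of the 3 Mta genes in ERT2 WT was 53.1% Mta2, 41.4% Mta1 and 5.46% Mta3, and Gatad2a made up 93.2% of Gatad2a and Gatad2b. Hdac1 made up 60.5% of the Hdac1 and Hdac2 level, but 66.6% with the length of all exons joined. Chd4 made up 81.0% of the level of Chd3 and Chd4.

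**Figure D1:**
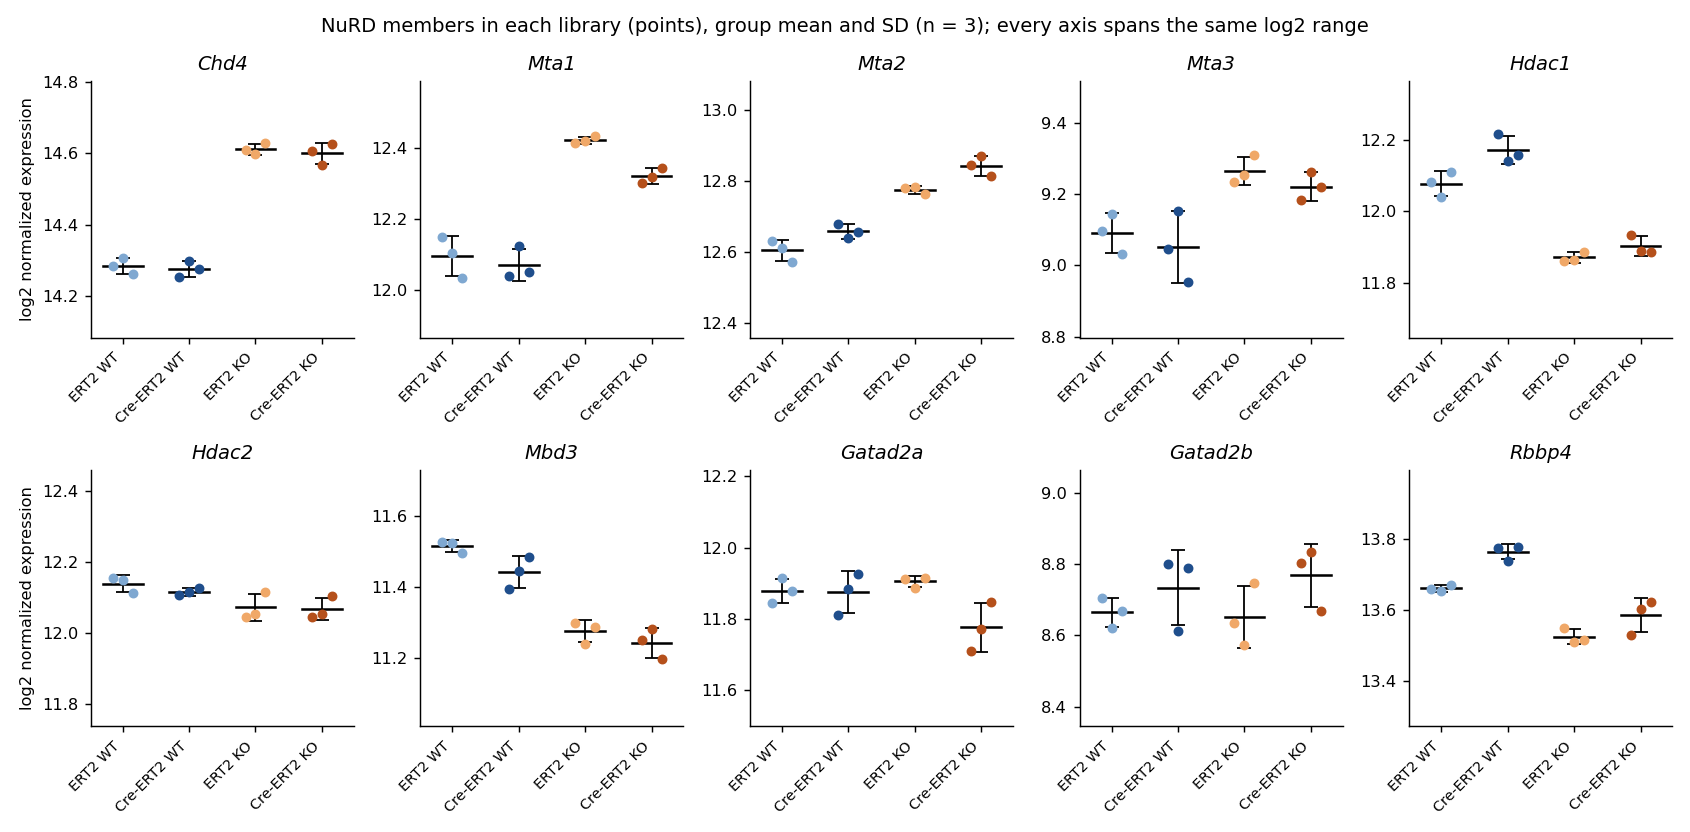
Normalized log2 expression (vertical axis) of the 10 NuRD genes in each of the 12 libraries, 1 panel per gene with the same log2 range, 1 point per library in 4 groups (WT and KO cells, each with ERT2 or Cre-ERT2), and black bars for the mean and SD of each group of 3. Chd4 and Mta1 sat higher in all 6 KO libraries than in all 6 WT libraries, whereas Hdac1, Mbd3 and Rbbp4 sat lower.

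The first question was whether RNA of the complex differed between cells labelled KO for Ikzf1 and Ikzf3 and WT cells. The remodeler and the Mta scaffolds were higher in KO libraries, while Hdac1, Mbd3 and Rbbp4 were lower, in both vectors. In ERT2 libraries, 8 of 10 members were called, 4 higher and 4 lower, and in Cre-ERT2 libraries again 8 of 10, 4 higher and 4 lower. Over all genes measured, 59.0% were called in ERT2 (29.8% higher and 29.3% lower) and 58.9% in Cre-ERT2 (30.4% higher and 28.6% lower), so a call was also the common outcome for other genes. The 3 KO values and 3 WT values did not overlap for 7 of 10 members in ERT2 (65.5% of all genes) and for 8 of 10 in Cre-ERT2 (63.6% of all genes). The median absolute change was 0.17 and 0.18 for the members and 0.10 and 0.11 for all genes. Every member had a mean above 8. Of the 7729 genes with a mean of at least 8, fitted alone, 5126 were called in ERT2 and 5096 in Cre-ERT2. The median change of those genes was not computed. Centring each library on its median lowered all changes by about the same amount, so that the calls over all genes in ERT2 went from 3616 higher and 3559 lower to 2866 higher and 4747 lower, and in Cre-ERT2 from 3688 and 3473 to 2983 and 4789. Under that scaling the median of all genes was -0.031 and -0.032, and 8 and 9 of the 10 members were called, the added one being Hdac2 in Cre-ERT2. The ERT2 and Cre-ERT2 comparisons use different libraries but may share clones.

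Chd4 (ENSMUSG00000063870, chr6:125095981-125130591, plus strand, GRCm38) was higher in every KO library. Its log2 expression was 14.28, 14.31 and 14.26 in ERT2 WT, 14.25, 14.30 and 14.28 in Cre-ERT2 WT, 14.61, 14.60 and 14.63 in ERT2 KO and 14.61, 14.57 and 14.63 in Cre-ERT2 KO. All 6 KO libraries lay above all 6 WT libraries, with no value in between. The change was 0.33 ± 0.021 (SE, n = 3 per group, limma adjusted p = 3.62e-08) in ERT2 and 0.32 ± 0.021 (limma adjusted p = 3.79e-08) in Cre-ERT2, each a 1.25-fold higher level. The 95% interval in ERT2 ran from 0.28 to 0.37.

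The Mta genes rose with Chd4, Mta1 most. Mta1 (ENSMUSG00000021144, chr12:113098278-113137206, plus strand) read 12.15, 12.10 and 12.04 in ERT2 WT, 12.04, 12.12 and 12.05 in Cre-ERT2 WT, 12.41, 12.42 and 12.43 in ERT2 KO and 12.30, 12.32 and 12.34 in Cre-ERT2 KO. The KO libraries were again all higher, and the Cre-ERT2 KO libraries stood below the ERT2 KO libraries. The change was 0.33 ± 0.030 (limma adjusted p = 1.19e-06) in ERT2 and 0.25 ± 0.030 (limma adjusted p = 1.35e-05) in Cre-ERT2. Mta2 (ENSMUSG00000071646, chr19:8941875-8952303, plus strand), the scaffold with the highest level of the 3, read 12.63, 12.61 and 12.57, then 12.68, 12.64 and 12.66, then 12.78, 12.78 and 12.76, then 12.84, 12.87 and 12.81 in the same order of groups. It was 0.17 higher in ERT2 KO (adjusted p = 2.44e-05) and 0.18 higher in Cre-ERT2 KO (adjusted p = 1.16e-05), with no overlap in either vector. Mta3 (ENSMUSG00000055817, chr17:83706163-83821516, plus strand), the least expressed of the family, read 9.10, 9.15 and 9.03, then 9.05, 9.15 and 8.95, then 9.24, 9.25 and 9.31, then 9.18, 9.26 and 9.22. Every KO value lay above every WT value, and the changes were 0.17 (adjusted p = 0.00674) and 0.17 (adjusted p = 0.00777).

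The deacetylases fell or did not pass the test. Hdac1 (ENSMUSG00000028800, chr4:129516104-129542713, minus strand) read 12.08, 12.04 and 12.11 in ERT2 WT, 12.22, 12.14 and 12.16 in Cre-ERT2 WT, 11.86, 11.86 and 11.89 in ERT2 KO and 11.93, 11.89 and 11.89 in Cre-ERT2 KO. All KO libraries were below all WT libraries. The change was -0.21 ± 0.026 (limma adjusted p = 2.03e-05, 0.866-fold) in ERT2 and -0.27 (limma adjusted p = 1.72e-06, 0.829-fold) in Cre-ERT2. Reads of Hdac1 can be shared with Gm10093, a copy 99.4% identical over 1444 bp whose own row made up 2.76% to 3.10% of the summed unlogged value of both. The sum of both rows, a check chosen after the data were seen, changed by -0.20 and -0.27. Hdac2 (ENSMUSG00000019777, chr10:36974544-37001889, plus strand) varied least of the 10 genes, at 12.15, 12.15 and 12.11, then 12.11, 12.11 and 12.13, then 12.05, 12.05 and 12.12, then 12.05, 12.05 and 12.10. The ERT2 groups overlapped, since the third KO library (12.12) was above the third WT library (12.11). Its change of -0.067 in ERT2 was called (adjusted p = 0.0349), but not without ERT2 WT replicate 1 (adjusted p = 0.104) or 2 (0.0954), nor without ERT2 KO replicate 1 (0.124) or 2 (0.109). In Cre-ERT2 the change of -0.048 was not called (adjusted p = 0.113) although all 3 KO values were lower, and it passed without Cre-ERT2 KO replicate 3 (adjusted p = 0.0423).

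Mbd3 and Rbbp4 fell in both vectors. Mbd3 (ENSMUSG00000035478, chr10:80392539-80399550, minus strand), a methyl-CpG-binding domain protein that has largely lost that binding in mammals, read 11.53, 11.52 and 11.50 in ERT2 WT, 11.40, 11.44 and 11.49 in Cre-ERT2 WT, 11.30, 11.24 and 11.29 in ERT2 KO and 11.25, 11.28 and 11.20 in Cre-ERT2 KO. The KO values were the lower ones throughout, with changes of -0.24 (adjusted p = 1.52e-05) and -0.20 (adjusted p = 7.91e-05). Rbbp4 (ENSMUSG00000057236, chr4:129307100-129335370, minus strand), a histone-binding protein of several complexes, read 13.66, 13.65 and 13.67, then 13.77, 13.74 and 13.78, then 13.55, 13.51 and 13.52, then 13.53, 13.60 and 13.62. The groups did not overlap within a vector, and the changes were -0.14 (adjusted p = 0.000376) and -0.18 (adjusted p = 3.89e-05). Exons of Rbbp4 overlap the opposite-strand genes Sync (518 bp) and Gm26722 (796 bp), neither of which is in the table. The library kit marks strand, and the strand setting of the counting is not given in the sources used here.

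The Gatad2 bridging subunits showed no shift shared by both vectors. Gatad2a (ENSMUSG00000036180, chr8:69907076-69996384, minus strand) read 11.84, 11.91 and 11.88 in ERT2 WT, 11.81, 11.89 and 11.93 in Cre-ERT2 WT, 11.91, 11.89 and 11.92 in ERT2 KO and 11.71, 11.77 and 11.85 in Cre-ERT2 KO. Only the Cre-ERT2 KO group stood low, and its highest value overlapped the Cre-ERT2 WT group. The change was 0.027 in ERT2 (adjusted p = 0.551) and -0.098 in Cre-ERT2 (adjusted p = 0.0359). The call in Cre-ERT2 was lost without Cre-ERT2 WT replicate 2 (adjusted p = 0.0881) or 3 (0.146) and without Cre-ERT2 KO replicate 1 (0.153) or 2 (0.0788). Gatad2b (ENSMUSG00000042390, chr3:90293178-90363407, plus strand) read 8.70, 8.62 and 8.67, then 8.80, 8.61 and 8.79, then 8.63, 8.57 and 8.75, then 8.80, 8.83 and 8.67, and its groups overlapped in both comparisons. Its changes were -0.012 (95% interval -0.14 to 0.12) and 0.035 (95% interval -0.096 to 0.16), so differences within those bounds were not excluded with 3 libraries a group. An antisense transcript, 4930537H20Rik, overlaps 247 bp of Gatad2b exons and is not in the table.

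Chd4, Mta1, Mta2, Mta3, Hdac1, Mbd3 and Rbbp4 were called in the same direction in both vectors and under all 22 alternatives tried for each. The highest adjusted p among these was 0.0372, for Mta3 in Cre-ERT2. Cell state moved with the same groups, between which 59.0% (ERT2) and 58.9% (Cre-ERT2) of all genes were called. Of 16 proliferation genes, 10 were lower and 3 higher in ERT2 KO, and 10 lower and 4 higher in Cre-ERT2 KO, and their summed log2 level ran from 17.74 to 17.77 in ERT2 WT and from 17.61 to 17.63 in Cre-ERT2 KO, and was 17.58 in all 3 ERT2 KO libraries. Of the 13 pre-B cell markers, 9 were lower and 2 higher in ERT2 KO and 10 lower and 2 higher in Cre-ERT2 KO, with median changes of -0.35 and -0.34. The summed log2 level of the 3 measured myeloid genes was 7.90 to 7.91 in ERT2 WT and 8.59 to 8.66 in ERT2 KO, that of the 2 T cell genes 9.11 to 9.19 and 8.13 to 8.16, and Tfrc, the 1 erythroid-list gene, fell by 0.92. The largest changes in these lists were Bub1 (0.42), Dntt (-0.87), Cd79a (-0.76 in Cre-ERT2), Lck (-1.45 and -1.93) and Lyz2 (0.99 and 1.23). The other measured genes of the myeloid and T cell lists went the opposite way to these sums, Itgam (-0.15 and -0.18) and Fcgr3 (-0.36 and -0.26) lower and Cd5 (0.13 and 0.64) higher in KO. The part of these shifts in the NuRD changes was not tested.

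**Figure D2:**
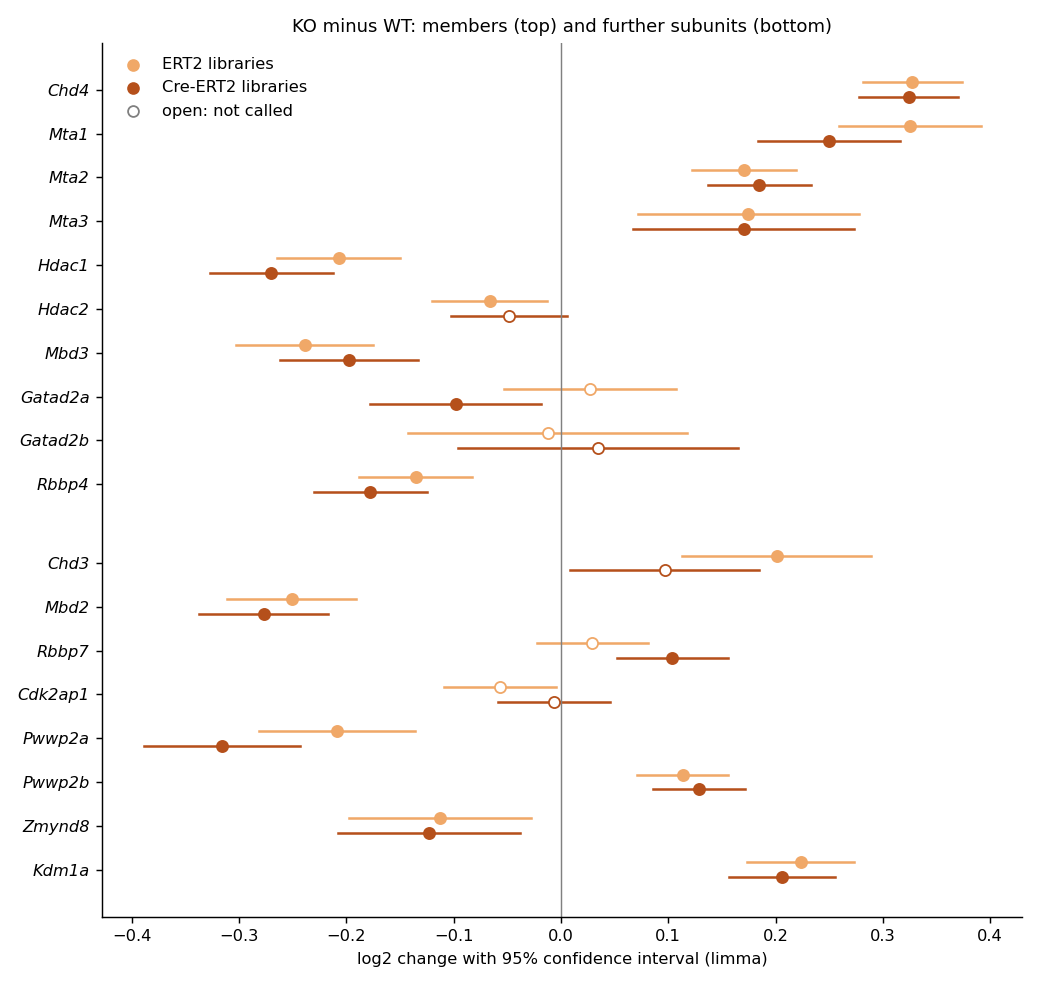
Difference in log2 expression (horizontal axis) between KO and WT for the 10 NuRD genes (top) and 8 further subunits (bottom), in ERT2 and in Cre-ERT2 libraries, with 95% confidence intervals from limma (n = 3 per group) and open points where a change was not called. Of the 10 genes, Chd4 (0.33 and 0.32) and Mta1 (0.33 and 0.25) lie farthest above 0, Hdac1 (-0.21 and -0.27) and Mbd3 (-0.24 and -0.20) farthest below.

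Sequence directly before annotated start sites is shown for Chd4 and Mta1, the largest rises, and for Mbd3 and Rbbp4, which fell, since Ikaros is known to bind DNA through the core GGGAA. Each run holds the 250 bases upstream of an annotated start from RefSeq (GRCm38.p6), 5′ to 3′ on the strand of the gene, with any GGGAA or its reverse complement TTCCC in capitals.
Chd4, chr6:125095913-125096162, plus strand: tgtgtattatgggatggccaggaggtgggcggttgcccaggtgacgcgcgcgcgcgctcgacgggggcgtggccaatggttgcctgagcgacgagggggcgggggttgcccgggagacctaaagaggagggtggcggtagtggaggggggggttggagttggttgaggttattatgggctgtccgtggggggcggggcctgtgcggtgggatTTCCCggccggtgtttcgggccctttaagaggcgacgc
Mta1, chr12:113098028-113098277, plus strand: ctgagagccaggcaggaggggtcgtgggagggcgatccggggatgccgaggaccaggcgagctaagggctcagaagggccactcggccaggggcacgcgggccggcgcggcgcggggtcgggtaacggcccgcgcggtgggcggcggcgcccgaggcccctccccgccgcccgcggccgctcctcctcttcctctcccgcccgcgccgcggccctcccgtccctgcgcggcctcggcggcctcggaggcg
Mbd3, chr10:80399532-80399781, minus strand: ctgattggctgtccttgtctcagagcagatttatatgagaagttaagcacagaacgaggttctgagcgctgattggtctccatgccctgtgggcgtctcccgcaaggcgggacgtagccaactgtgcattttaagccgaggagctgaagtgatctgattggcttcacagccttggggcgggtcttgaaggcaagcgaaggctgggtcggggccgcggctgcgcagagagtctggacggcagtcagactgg
Rbbp4, chr4:129335371-129335620, minus strand: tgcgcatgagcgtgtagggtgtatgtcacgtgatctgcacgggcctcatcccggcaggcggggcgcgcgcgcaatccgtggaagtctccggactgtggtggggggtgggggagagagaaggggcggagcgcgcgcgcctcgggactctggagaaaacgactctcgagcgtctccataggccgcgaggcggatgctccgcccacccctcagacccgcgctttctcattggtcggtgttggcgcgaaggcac

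The Chd4 run, which begins upstream of the gene's first annotated base and extends into the gene, holds 1 TTCCC and the other 3 runs hold none. A second Chd4 window, chr6:125095731-125095980, ends at the base before the annotated gene start and also holds none. RefSeq windows were matched for 8 of the 10 members, 11 windows in all, but not for Hdac1 and Mta3. Of these 11 windows 4 held the core on either strand, against 56.2% of all 32851 RefSeq windows of the same length upstream of starts. The 4 windows belong to Chd4, Gatad2a and Gatad2b, and windows of 1 gene are not independent. The most matches, 3, stood in a window of Gatad2a, 1 of the 2 members with no called change in ERT2 KO. A match is a string of letters and not a measured binding site.

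Because several subunits have paralogs that take the same place in the complex, the difference between paralogs was computed within each library and compared between KO and WT over both vectors. An exact permutation test with labels exchanged within a vector (400 arrangements, two-sided, smallest p 0.005) was used, with Benjamini-Hochberg adjustment over 16 tests of 8 pairs. In 5 of 8 pairs the balance differed. The Mta pairs share genes and are not independent, and each Mta pair that passed holds Mta1. The share among other gene pairs was not computed, and 59.0% (ERT2) and 58.9% (Cre-ERT2) of all genes were called between KO and WT. Chd4 gained on Chd3, the related ATPase, by 0.18 (p = 0.005, exact permutation, adjusted p = 0.0267), 0.13 in ERT2 and 0.23 in Cre-ERT2. As a share of the summed per-length level, Chd4 went from 81.0% in ERT2 WT to 82.3% in ERT2 KO and from 81.1% in Cre-ERT2 WT to 83.4% in Cre-ERT2 KO. Rbbp4 lost against Rbbp7, its near twin, with a difference of -0.22 (p = 0.005, exact permutation, adjusted p = 0.0267), -0.16 in ERT2 and -0.28 in Cre-ERT2. Its per-length share fell from 41.4% in ERT2 WT to 38.7% in ERT2 KO and from 43.9% to 39.2% in the Cre-ERT2 groups. Hdac1 lost against Hdac2 by -0.18 (p = 0.005, exact permutation, adjusted p = 0.0267), -0.14 and -0.22 in the 2 vectors.

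Among the scaffolds Mta1 gained on both relatives. Mta1 minus Mta2 was 0.11 higher in KO (p = 0.015, exact permutation, adjusted p = 0.04), 0.15 in ERT2, where the groups did not overlap, and 0.065 in Cre-ERT2, where they did. That call was lost without Cre-ERT2 KO replicate 3 (adjusted p = 0.0571), Cre-ERT2 WT replicate 1 (0.08), Cre-ERT2 WT replicate 3 (0.0686) or ERT2 KO replicate 3 (0.0533). Mta3 minus Mta1 was -0.11 (p = 0.01, exact permutation, adjusted p = 0.032), -0.15 in ERT2 without overlap and -0.079 in Cre-ERT2 with overlap. Mta3 minus Mta2 was -0.0052 (p = 0.91, exact permutation). The balance of Mbd3 and Mbd2 (0.046, p = 0.185, exact permutation) and that of Gatad2a and Gatad2b (-0.047, p = 0.51, exact permutation) did not pass. Both Mbd genes fell, so their balance moved little.

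**Figure D3:**
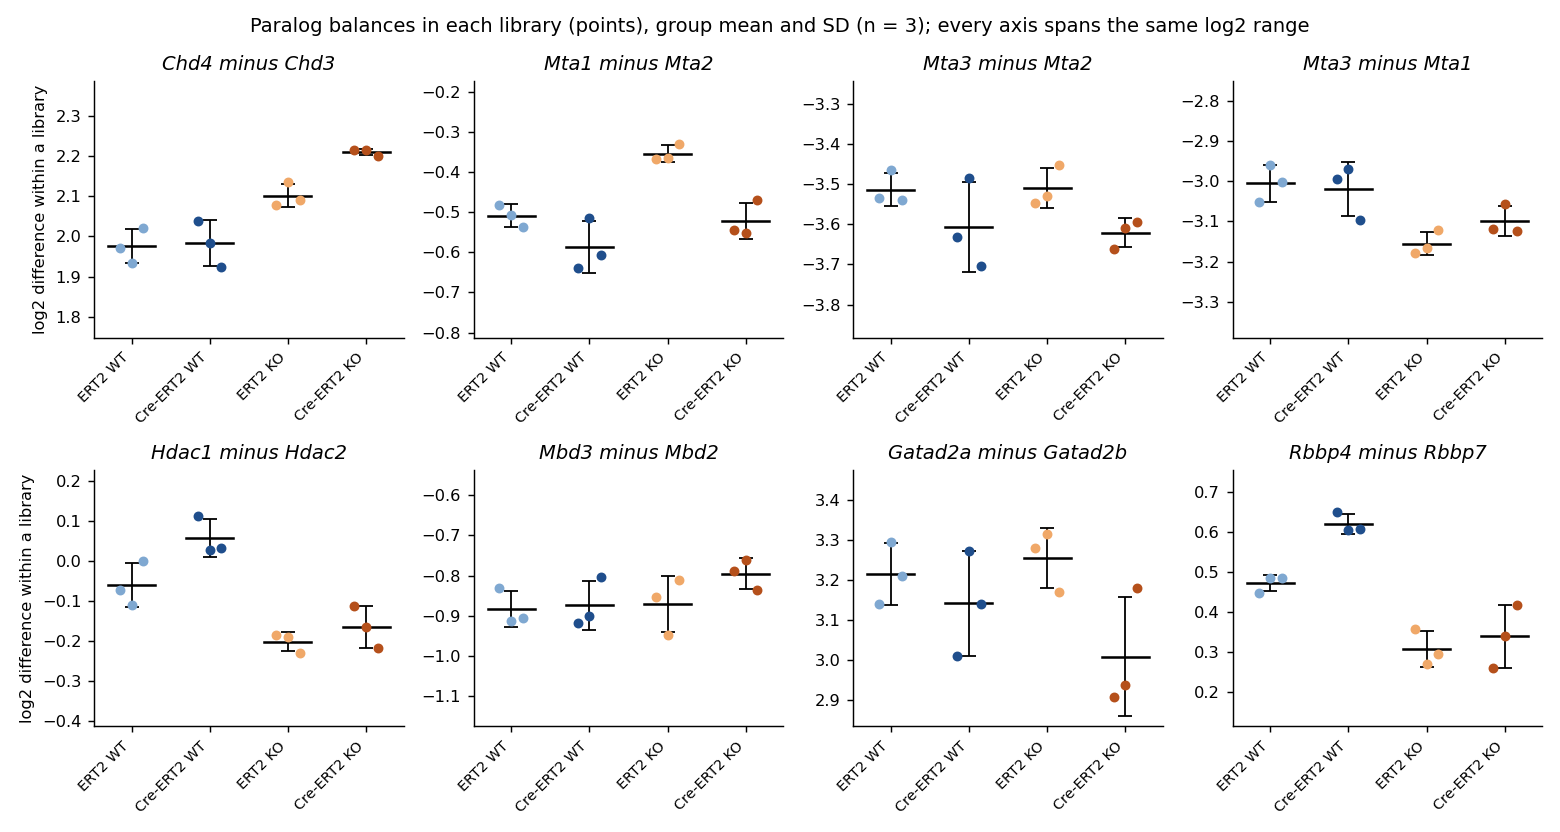
Difference in log2 expression between paralogs of a subunit within each library (vertical axis), 1 panel per pair with the same log2 range, 1 point per library in 4 groups of 3, and black bars for the mean and SD of each group. Rbbp4 minus Rbbp7 and Hdac1 minus Hdac2 are lower in the KO libraries of either vector and Chd4 minus Chd3 is higher, by -0.22, -0.18 and 0.18 over both.

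Further subunits listed for the complex gave 6 of 8 called in each vector, 3 higher and 3 lower. Over all genes, 59.0% were called in ERT2 and 58.9% in Cre-ERT2. Chd5 was not in the table. Mbd2, the methyl-CpG-binding paralog that replaces Mbd3, read 12.36, 12.44 and 12.40 in ERT2 WT and 12.15, 12.19 and 12.10 in ERT2 KO. The KO values were all lower, and the change was -0.25 ± 0.028 (limma adjusted p = 5.28e-06) in ERT2 and -0.28 ± 0.028 (limma adjusted p = 2.05e-06) in Cre-ERT2. Pwwp2a, which joins the Mta and Hdac core without Chd4, fell by 0.21 (adjusted p = 0.000149) and 0.32 (adjusted p = 3.69e-06). Its paralog Pwwp2b rose by 0.11 and 0.13, at a low level. Its group means ran from 5.12 to 5.25, below the library medians of 9.06 to 9.11. Under the alternatives its changes were as small as 0.060 and 0.069. Zmynd8, a reader of histone marks that binds NuRD, fell by 0.11 (adjusted p = 0.0252) and 0.12 (adjusted p = 0.0160). Its calls were lost without ERT2 WT replicate 3 or ERT2 KO replicate 2 in ERT2 and without Cre-ERT2 WT replicate 1 or Cre-ERT2 KO replicate 2 in Cre-ERT2 (adjusted p 0.0579 to 0.110). Quantile normalization and a threshold of 0.01 also removed both calls. Kdm1a, the lysine demethylase LSD1, read 11.51, 11.55 and 11.56 in ERT2 WT and 11.77, 11.77 and 11.75 in ERT2 KO. It stood higher in every KO library, by 0.22 (adjusted p = 2.79e-06) and 0.21 (adjusted p = 5.79e-06). Chd3 rose by 0.20 in ERT2 (adjusted p = 0.000897), and its change in Cre-ERT2 was 0.097 (adjusted p = 0.0567). The latter passed without ERT2 WT replicate 2 or 3, Cre-ERT2 WT replicate 3 or Cre-ERT2 KO replicate 2 (adjusted p 0.0280 to 0.0498). It also passed after quantile normalization and when only genes with a mean of at least 8 were fitted. Rbbp7 rose by 0.10 in Cre-ERT2 (adjusted p = 0.00228), and its change in ERT2 was 0.029 (adjusted p = 0.311). Cdk2ap1, a small subunit, was not called in either (-0.057 and -0.0065), and in ERT2 it passed without ERT2 WT replicate 3 (adjusted p = 0.0314). In ERT2 it also passed without the mean-dependent prior, with the replicate block, after median centring and with 32 added to the unlogged values.

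The second question was whether NuRD RNA differed between Cre-ERT2 and ERT2 libraries, a comparison named for β-catenin below. All cells carried the Ctnnb1Ex3fl/+ allele, so stabilized β-catenin cannot be told apart from Cre activity or the vector. In WT cells, Hdac1 and Rbbp4 were slightly higher in Cre-ERT2 WT than in ERT2 WT libraries, and the other 8 members did not pass the test. That is 2 of 10 called, both higher, beside 11.9% of all genes (5.93% higher and 5.95% lower). Of the 7729 genes with a mean of at least 8, fitted alone, 1290 were called. Groups did not overlap for 4 of 10 members and for 31.1% of all genes. Hdac1, at 12.08, 12.04 and 12.11 in ERT2 WT, was 12.22, 12.14 and 12.16 in Cre-ERT2 WT, a change of 0.094 ± 0.026 (limma adjusted p = 0.0355). The call was lost without ERT2 WT replicate 1 (adjusted p = 0.0838), ERT2 WT replicate 2 (0.135), Cre-ERT2 WT replicate 1 (0.136), Cre-ERT2 WT replicate 3 (0.0701) or ERT2 KO replicate 2 (0.0507). With Gm10093 added the change was 0.093. Rbbp4 rose from 13.65 to 13.67 in ERT2 WT to 13.74 to 13.78 in Cre-ERT2 WT, with no overlap, by 0.10 ± 0.024 (limma adjusted p = 0.0153). That call was lost without ERT2 WT replicate 1 (adjusted p = 0.0513), ERT2 WT replicate 2 (0.0546), Cre-ERT2 WT replicate 1 (0.0567) or Cre-ERT2 WT replicate 3 (0.0662).

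Mta2 and Mbd3 also had groups that did not overlap, with changes of 0.053 (adjusted p = 0.154) and -0.074 (adjusted p = 0.139) that did not pass. Chd4 changed by -0.0089, with a 95% interval from -0.055 to 0.037, so a shift as large as its KO difference of 0.33 lay outside what these libraries allow. The median absolute change of the members was 0.047, against 0.036 for all genes. In the same libraries 1 of 16 proliferation genes was called (Top2a, 0.11), 2 of 13 pre-B cell markers were higher and 6 lower (Dntt, 0.30), Lck was 0.81 higher and Fcgr3 changed by -0.099. Their part in the NuRD values was not tested.

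In the KO background the same Cre-ERT2 comparison called Mta1 and Gatad2a, both lower. That was 2 of 10 members, beside 12.6% of all genes (7.27% higher and 5.33% lower). Of the 7729 genes with a mean of at least 8, fitted alone, 1214 were called. Groups did not overlap for 3 of 10 members and 28.3% of all genes. Gatad2a, at 11.91, 11.89 and 11.92 in ERT2 KO, was 11.71, 11.77 and 11.85 in Cre-ERT2 KO, all lower, with a change of -0.13 ± 0.037 (limma adjusted p = 0.0382). Leaving out single libraries lost this call in 7 of 12 cases, with an adjusted p of up to 0.128. Those were ERT2 WT replicate 3, Cre-ERT2 WT replicate 2, all 3 ERT2 KO libraries and replicates 1 and 2 of Cre-ERT2 KO, and the change without them ran from -0.14 to -0.096. Mta1, at 12.41 to 12.43 in ERT2 KO, was 12.30 to 12.34 in Cre-ERT2 KO, a change of -0.10 ± 0.030 (limma adjusted p = 0.0492). This call was lost in 9 of 12 cases, all but ERT2 WT replicates 1 and 3 and Cre-ERT2 WT replicate 2, with an adjusted p of up to 0.135. Mta2 was 0.068 higher on average with no overlap (adjusted p = 0.0694), and it passed without Cre-ERT2 KO replicate 3 (adjusted p = 0.0410). Rbbp4 (0.061, adjusted p = 0.138) passed without Cre-ERT2 KO replicate 1 (0.088, adjusted p = 0.0214). Hdac1 changed by 0.032 (adjusted p = 0.512), Chd4 by -0.012 (95% interval -0.058 to 0.034) and Gatad2b by 0.12 (95% interval -0.013 to 0.25), none of them called. Beside these, 2 of 16 proliferation genes were higher and 2 lower (Rrm2, -0.13), 2 of 13 pre-B cell markers were higher and 6 lower (Dntt, 0.77), Cd5 was 1.02 higher and Lyz2 0.21 higher, and their part was not tested.

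Whether the change from ERT2 to Cre-ERT2 differed between backgrounds was tested directly. No member passed (0 of 10, limma), beside 4.53% of all genes (2.71% higher and 1.82% lower), and 0 were called under every alternative run. At an unadjusted p under 0.05 there were 1 of 10 members, 2 of 8 further subunits and 17.3% of all genes. The member was Gatad2a, with a difference of -0.13 (adjusted p = 0.230), and the further subunits were Rbbp7 (0.074) and Pwwp2a (-0.11). The calls of different members in WT and KO cells are therefore not shown to be different responses. Of the paralog balances, only Mta1 minus Mta2 differed between Cre-ERT2 and ERT2 over both backgrounds, at -0.12 (p = 0.01, exact permutation, adjusted p = 0.032). The difference was -0.078 in WT, where the groups overlapped, and -0.17 in KO, where they did not. Among the further subunits, Cdk2ap1 was lower (-0.088, adjusted p = 0.0317) and Kdm1a higher (0.083, adjusted p = 0.0340) in Cre-ERT2 WT, and Mbd2 was lower in Cre-ERT2 KO (-0.11, adjusted p = 0.0218). The Cdk2ap1 call was lost without ERT2 WT replicate 1 or 2 or any Cre-ERT2 WT library (adjusted p 0.0731 to 0.131), and the Kdm1a call without any ERT2 WT library or Cre-ERT2 WT replicate 1 or 3 (0.0509 to 0.136). The Mbd2 call was lost without ERT2 KO replicate 1 or 2 or any Cre-ERT2 KO library (0.0508 to 0.0966).

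**Figure D4:**
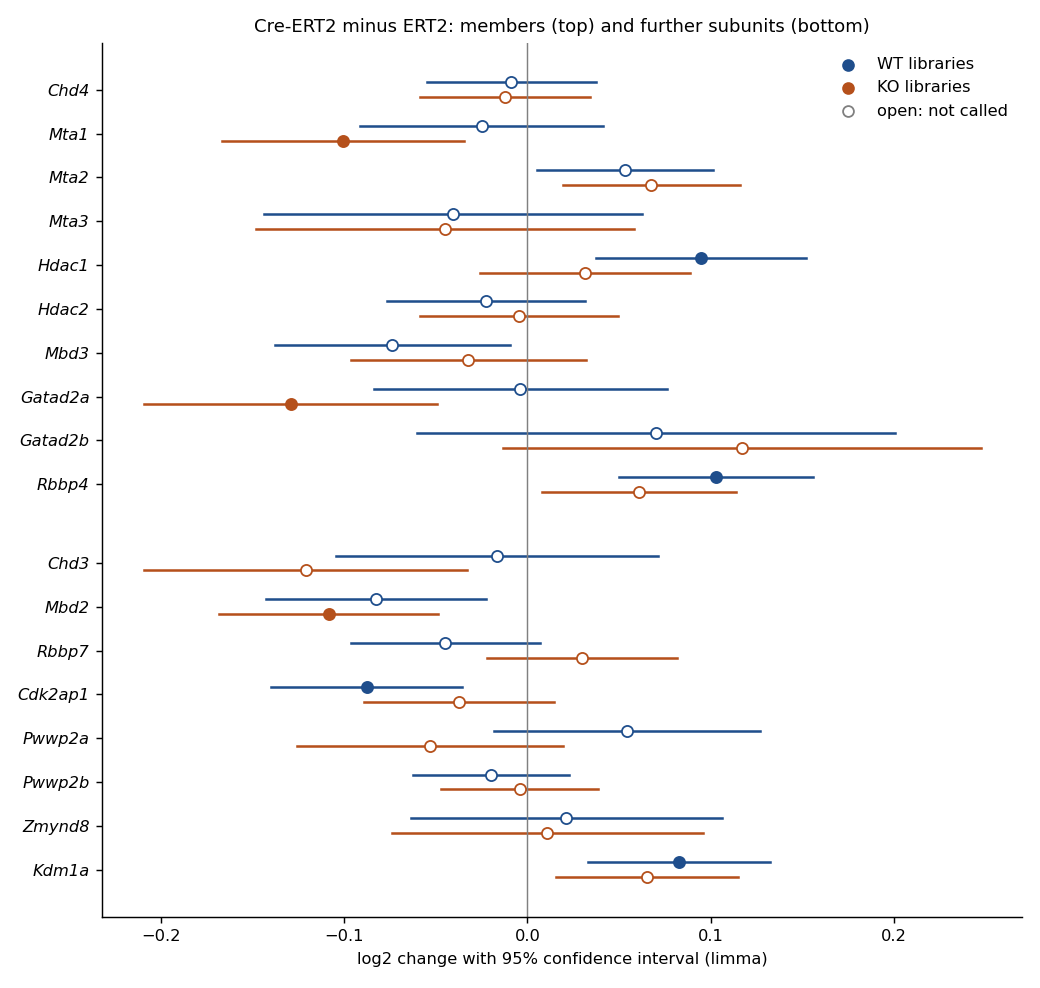
Difference in log2 expression (horizontal axis) between Cre-ERT2 and ERT2 libraries for the 10 NuRD genes (top) and 8 further subunits (bottom), in WT and in KO cells, with 95% confidence intervals from limma (n = 3 per group) and open points where a change was not called. The called changes of the 10 genes, Hdac1 (0.094) and Rbbp4 (0.10) in WT and Mta1 (-0.10) and Gatad2a (-0.13) in KO, are smaller than the KO against WT differences of Chd4 and Mta1.

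Across the 4 group means, Mta1 spanned 0.35 and Chd4 0.34, wider than 81.4% and 80.1% of all genes, and Hdac2 spanned 0.071, wider than 21.9%. The median gene spanned 0.16. The genes nearest to Chd4 over the 12 libraries, by root mean square distance after centring each gene on its own mean, were Eif4b (0.018), Pkdcc (0.023) and Rab2a (0.025), where the median gene lay at 0.17. Those nearest to Mta1 were Ppp1r9b (0.030), Miip (0.031) and Ufsp2 (0.034), with the median gene at 0.16.

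The same comparisons were laid over other complexes, from lists chosen for shared subunits or shared recruitment. Beside them stand the 59.0% of all genes called between KO and WT in ERT2 and 58.9% in Cre-ERT2. Of 20 genes of other complexes built on Hdac1 and Hdac2 (SIN3, CoREST and MiDAC), 9 were higher and 6 lower in ERT2 KO and 7 and 8 in Cre-ERT2 KO. Rcor2, a CoREST corepressor, had the largest change, 0.52 and 0.63 higher, and Sap18 was the 1 gene of the list called with Cre-ERT2, in KO cells (-0.32). Of 7 genes of the HDAC3 corepressor complex, 3 were higher and 1 lower, then 4 and 1, and Coro2a was lower with Cre-ERT2 in both backgrounds (-0.14 in WT and -0.18 in KO). Of 11 genes of PRC2 and CAF-1, which also hold Rbbp4 or Rbbp7, 3 were higher and 5 lower, then 2 and 4. Ezh2, the methyltransferase of PRC2, fell by 0.47 and 0.55 in KO and was higher with Cre-ERT2 in both backgrounds, by 0.42 in WT and 0.33 in KO.

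The BAF complex is a remodeler that opposes Polycomb repression. Of its 23 measured subunits 4 were higher and 13 lower in ERT2, and 3 higher and 14 lower in Cre-ERT2, with medians of -0.092 and -0.086 beside 0.0016 and 0.0016 for all genes, and 0.0074 and -0.0069 for the 10 NuRD members. Phf10 was the largest change in ERT2 (0.64) and Bcl7a the largest in Cre-ERT2 (-0.68). Smarca4, the BAF ATPase that corresponds to Chd4 in NuRD, rose by 0.24 with Cre-ERT2 in WT cells, where Chd4 changed by -0.0089, and Brd7 rose by 0.31 in KO cells. Of 11 zinc finger factors known to bind NuRD, 3 were higher and 4 lower, then 3 and 5, with Ikzf1 and Ikzf3 among them and Ikzf1 the largest change in both. Over all genes, 29.8% were called higher and 29.3% lower in ERT2, and 30.4% higher and 28.6% lower in Cre-ERT2. These counts describe the lists and no difference between complexes was tested.

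**Figure D5:**
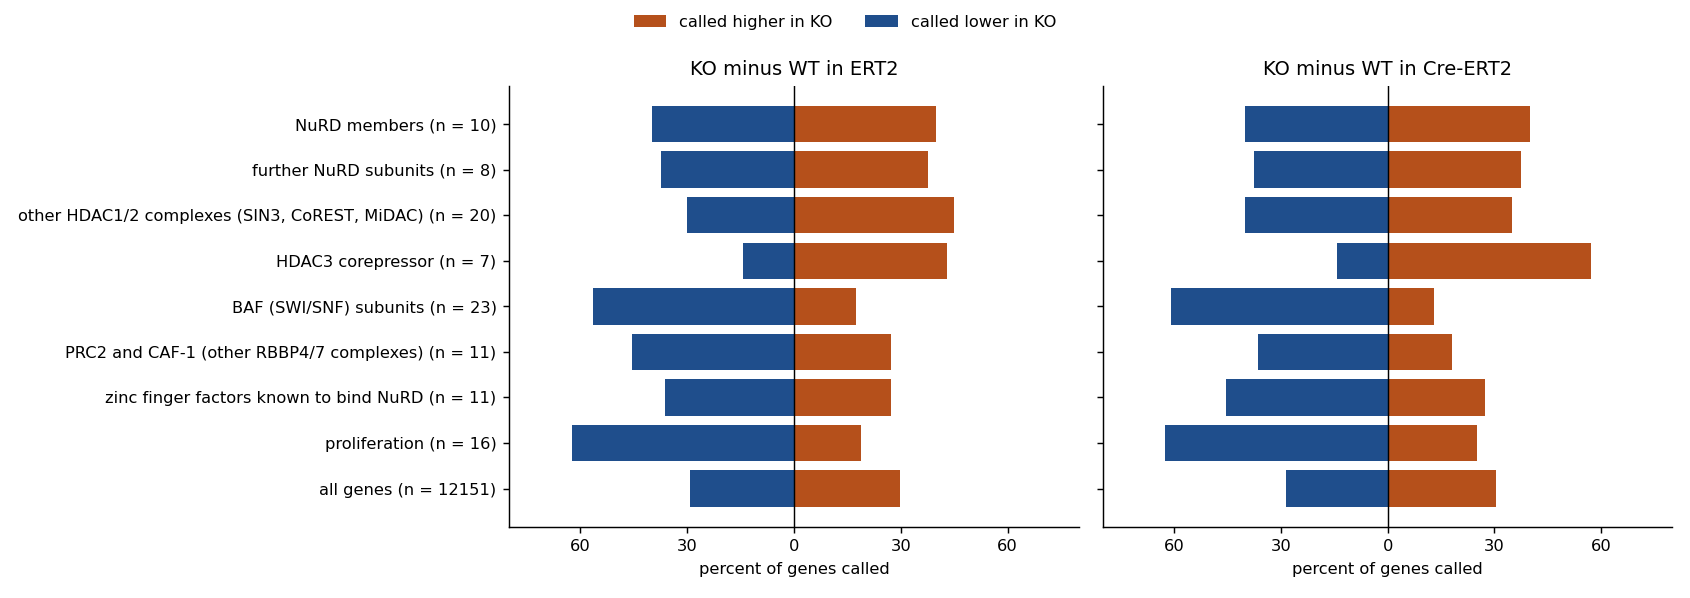
Percent of genes in each list called higher (right of 0) or lower (left of 0) in KO than in WT by limma at an adjusted p under 0.05, in ERT2 and Cre-ERT2 libraries, for the NuRD genes, the other complexes, the proliferation genes and all 12151 genes. The NuRD bars are equal on both sides (4 of 10 each), the BAF bars are longer on the lower side (13 and 14 of 23), and the bars of all genes are near equal (29.8% and 29.3% in ERT2).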

How the data were processed

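RNA libraries were prepared from 280 ng of RNA with 10 cycles of PCR. The submitters' processing notes name Salmon 1.4.0, STAR 2.7.6, DESeq2 1.30.1 and mm10/GRCm38. The authors deposited 1 normalized log2 value per gene and library without naming the transformation or the genes left out before deposit, and read depth is unknown. The planned log2 step assumed unlogged values. The deposited values were log2 already and were used as they stand, so changes of weakly expressed genes may be understated.

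A model of 4 group means was fitted to 12151 genes with limma 3.58.1 (R 4.3.3), with Benjamini-Hochberg adjustment and calls at an adjusted p under 0.05. Paralog balances were tested by exact permutation within strata. The fit was tested on simulated data. Named genes were all 10 members, 8 further subunits, the largest called change of each other list in each comparison, Ikzf1, Ikzf3, Ctnnb1 and, for the 2 members with the widest range of group means, the 3 genes nearest in pattern. The largest change of 1 list is not reported here. The members and lists were chosen with earlier results of these data known. Alternatives covered the prior, the libraries fitted, scaling, filter, pseudocount, threshold, replicate block and leaving out each library. Coordinates are those of the GENCODE annotation of GRCm38.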

Additional observations from a re-analysis of the deposited data

How the results depend on the processing

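The number of members called between KO and WT stayed within 1.5 times under every alternative run, at 7 to 8 of 10 in ERT2 and 7 to 9 in Cre-ERT2 when single libraries were left out. The β-catenin counts rested on single libraries, with 0 to 2 members called in WT and 0 to 2 in KO. In WT, 1 member was called from only the 6 libraries compared, 1 after quantile normalization and 0 at an adjusted p under 0.01. In KO, 1 was called without the mean-dependent prior, 1 from the 6 libraries and 0 at an adjusted p under 0.01. Depth cannot be judged without counts, and 3 libraries a group limit precision.

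Replicate numbers recur in all groups, and with 3 libraries a group the correlations cannot decide whether they pair the libraries. Of 18 same-numbered pairs 2 had a correlation of deviations above 0.1 (-0.091 to 0.31), and 5 of 12 libraries correlated best with their own number. With the replicate block, 1 member was called for β-catenin in KO, and over all genes 7089, 7108, 1361, 1374 and 424 were called for KO against WT in ERT2 and Cre-ERT2, β-catenin in WT and KO and their difference, against 7175, 7161, 1443, 1531 and 550 without it. Among members the block removed the call of Mta1 in KO, and among further subunits that of Kdm1a in WT. For the paralog balances the block left 6 pairs for a sign-flip test. Its smallest adjusted p was 0.0714, and no balance passed. A sign-flip test over 6 pairs allows only a coarse smallest p, so this outcome does not decide about the balances. Pairing leaves a mean difference as it was, so the values are the same by construction. In KO against WT they were 0.11 for Mta1 minus Mta2, -0.11 for Mta3 minus Mta1 and -0.18 for Hdac1 minus Hdac2. Rbbp4 minus Rbbp7 was -0.22 and Chd4 minus Chd3 was 0.18. In Cre-ERT2 against ERT2, Mta1 minus Mta2 was -0.12.

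In Cre-ERT2 against ERT2, Hdac1 minus Hdac2 passed after quantile normalization (0.084) and Mta3 minus Mta2 with 32 added to the unlogged values (-0.10). Leaving out single libraries gave 0.097 to 0.13 for Mta1 minus Mta2 in KO against WT, and in Cre-ERT2 against ERT2 -0.13 to -0.079 for Mta3 minus Mta2, 0.063 to 0.091 for Hdac1 minus Hdac2 and 0.070 to 0.11 for Rbbp4 minus Rbbp7.

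The sign turned in values that were not called. Quantile normalization gave 0.032 for Gatad2a minus Gatad2b and -0.0030 for Gatad2b in Cre-ERT2 (KO against WT) and 0.0033 for Chd4 with β-catenin in WT, and median centring gave -0.0049 for Gatad2a and -0.0028 for Rbbp7 (KO against WT in ERT2). Without single libraries, KO against WT ran from -0.030 to 0.025 for Mta3 minus Mta2, -0.060 to 0.026 for Gatad2b in ERT2, -0.026 to 0.085 for Gatad2b in Cre-ERT2 and -0.014 to 0.00055 for Cdk2ap1 in Cre-ERT2. The β-catenin change in WT ran from -0.021 to 0.0028 for Chd4, -0.056 to 0.0011 for Mta1, -0.092 to 0.0084 for Mta3, -0.030 to 0.028 for Gatad2a, -0.051 to 0.023 for Chd3 and -0.016 to 0.054 for Zmynd8. In KO it ran from -0.026 to 0.0039 for Chd4, -0.022 to 0.017 for Hdac2, -0.017 to 0.013 for Pwwp2b and -0.018 to 0.033 for Zmynd8. Its difference between KO and WT ran from -0.017 to 0.013 for Chd4, -0.053 to 0.047 for Mta3, -0.014 to 0.097 for Gatad2b and -0.043 to 0.027 for Zmynd8. The cause was not tested.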
